A study of Mus musculus with 6 samples.

Results

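Glutathione transferases and other enzymes of phase II detoxification were examined in the ventral midbrain of Bach1 knockout and wild-type mice. The genes were chosen by symbol: glutathione transferases of the alpha, kappa, mu, omega, pi, theta and zeta classes, microsomal glutathione transferases, UDP-glucuronosyltransferases, sulfotransferases, aldo-keto reductases of families 1 and 7, carbonyl reductases, epoxide hydrolases, and Nqo1, Nqo2, Aox1 and Ptgr1. This gave 76 genes of the 22180 with a probe set of their own, and where a gene had several, the one with the highest signal over the 6 arrays was taken. A further 20 genes that fit the choice had no such probe set, 15 of them because they share one with other genes. No zeta-class gene and no Ugt1a gene was among the 76.

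RNA of the ventral midbrain, a brain region rich in dopamine neurons, was hybridised to Affymetrix mouse gene arrays. The 3 arrays labelled Bach1 knockout (KO-labelled) and the 3 wild-type arrays came from male mice 2 months of age, matched for age. The labels name no other allele, treatment or strain, and do not describe how Bach1 was disrupted. Separate animals are not stated for the replicates, and p-values then measure only the spread between these samples, which may be technical. Values are log2 levels made by the authors with RMA, and the number of arrays limits their precision. A probe set's level depends on its probes as well as on its transcript, so levels are compared between groups and not between genes. In a tissue sample, fewer cells of a type and less RNA per cell cannot be told apart.

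Phase II enzymes make reactive or fat-soluble molecules easier to excrete by joining them to glutathione, sulfate or glucuronic acid, and the reductases and epoxide hydrolases beside them disarm quinones, carbonyls and epoxides. Many of these genes carry antioxidant response elements, short DNA sites at which NRF2 with a small MAF partner activates transcription and BACH1, a heme-binding repressor, competes for the same sites. In the brain, glutathione transferases are found chiefly in glia and vessels and handle products of lipid peroxidation and of dopamine oxidation.

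Bach1 itself was at 7.59, 7.68 and 7.70 on the KO-labelled arrays, against 7.46, 7.59 and 7.57 on the wild-type arrays, so its signal was not lower under the knockout label (log2 fold change 0.11, 95% confidence interval, CI, -0.085 to 0.31, limma, adjusted p = 0.74). Whether this probe set reads a disrupted stretch of the gene is not given, so it checks nothing if it lies outside one, and every direction here rests on the labels. Hmox1, the heme oxygenase gene that BACH1 represses, was at 8.50, 8.22 and 8.41 on the KO-labelled arrays, against 6.51, 6.46 and 6.32 on the wild-type arrays, and was the only named gene called over all probe sets (log2 fold change 1.95, adjusted p = 0.0181). It lost its call whenever 1 array was left out, with adjusted p-values of 0.134 to 0.233 and log2 fold changes of 1.88 to 2.03. It also lost it with the replicate number as a block (adjusted p = 0.544) and without variance moderation (adjusted p = 0.254). KO-labelled replicate 2 and wild-type replicate 1 stood apart from their groups in markers of meningeal fibroblasts, with mean levels of -0.67 and -0.63 relative to the wild-type mean. Markers of hypothalamus and pituitary spread wider, and other arrays stood apart in them. They were at -0.40, -0.45 and -1.23 on KO-labelled replicates 1, 2 and 3, against -0.47, -0.08 and 0.55 on the wild-type arrays.

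None of the 76 genes passed the test between KO-labelled and wild-type arrays. Limma called 0 of them at an adjusted p under 0.05 over all 41345 probe sets, where it called 0.00726% of all probe sets, and the smallest adjusted p among them was 0.516, for Gstt3. Their log2 fold changes ran from -0.53 for Gsta3 to 0.49 for Sult2a4, with a median of -0.02, beside 0.0005 for all probe sets. For 53 of the 76 the estimate lay within 0.2 of 0, beside 28934 of all 41345 probe sets and 17572 of the 22180 genes with 1 probe set each. At an unadjusted p under 0.05 there were 8 genes, 2 higher (Sult2a4 and Ugt2b1) and 6 lower (Gstt3, Gsta3, Gstt2, Sult2a7, Ephx3 and Nqo2) on the KO-labelled arrays. That is 10.5% of the genes beside 8.27% of all probe sets, and the background is 4.97% for the higher and 3.3% for the lower direction. Of the 22180 genes with 1 probe set each, 6.51% were at such a p. For 11 genes the groups did not overlap, 4 higher and 7 lower, which is 14.5% beside a background of 14.3% (7.4% higher and 6.86% lower), so the share of separated genes was near the background. The count of 8 became 4, 3 and 5 without KO-labelled replicates 1, 2 and 3, and 2 and 5 without wild-type replicates 2 and 3. Without wild-type replicate 1 it stayed at 8.

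**Figure D1:**
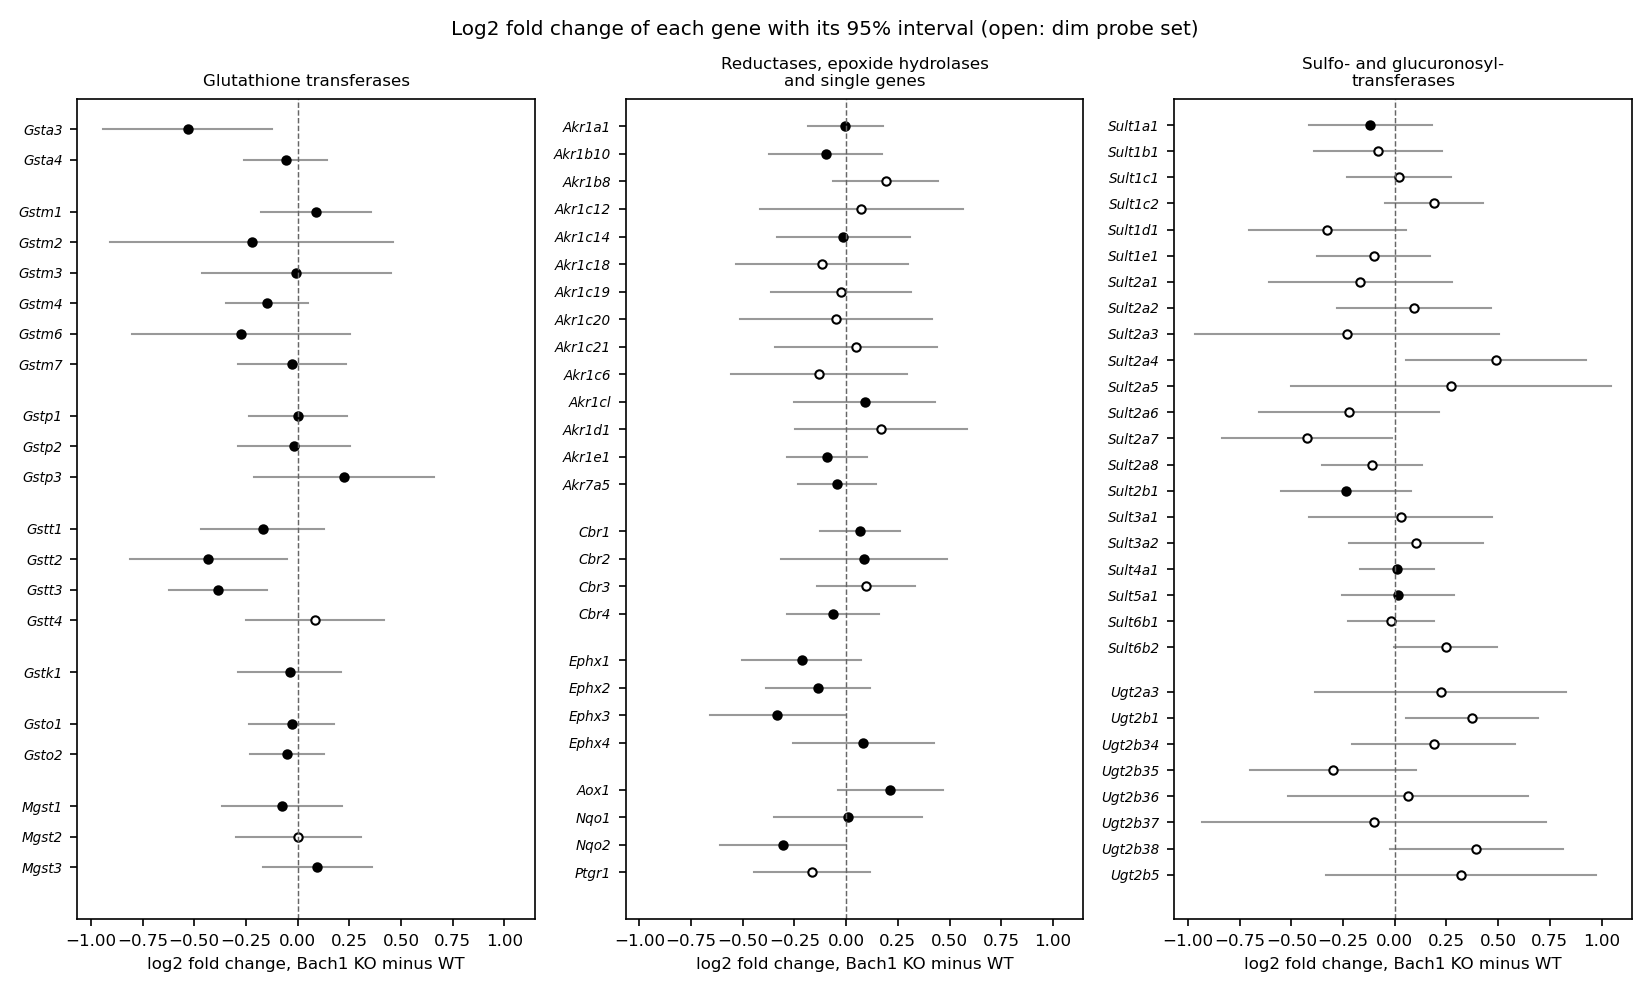
Log2 fold change, Bach1 KO-labelled minus wild type (horizontal axis), for each of the 76 genes, with the 95% CI of the limma fit as a line (CI, confidence interval; n = 3 arrays per group). Filled points have a mean level above the 40th percentile of all probe sets (5.07) and open points do not. The lowest point is Gsta3 at -0.53 and the highest Sult2a4 at 0.49, and all intervals include 0 but those of the 8 genes at an unadjusted p under 0.05.

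The theta class held the gene with the smallest p of all 76, and lower means at 3 of its 4 genes. Theta transferases act on small halogenated compounds and sulfate esters. Gstt3 (probe set 17241921) was at 6.51, 6.34 and 6.53 on the KO-labelled arrays, against 6.77, 6.96 and 6.81 on the wild-type arrays. Every KO-labelled value lay below every wild-type value, and the SD was 0.10 in both groups. The log2 fold change was -0.38 (SE 0.10, 95% CI -0.62 to -0.15), which is 1.31-fold lower, and did not pass over all probe sets (limma, unadjusted p = 0.00712, adjusted p = 0.516). Leaving out any 1 array gave estimates of -0.424 to -0.325.

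Gstt2 (probe set 17241954) was at 5.94, 6.03 and 6.15 on the KO-labelled arrays, against 6.16, 6.70 and 6.56 on the wild-type arrays. The groups separated only at the third decimal, since KO-labelled replicate 3 and wild-type replicate 1 had 6.155 and 6.156. Its log2 fold change was -0.43 (95% CI -0.81 to -0.051; limma, adjusted p = 0.572), and -0.59 without wild-type replicate 1 and -0.32 without wild-type replicate 2. Gstt1, the class member with the highest signal, was at 8.72, 8.38 and 8.59 on KO-labelled arrays, against 8.61, 8.87 and 8.72 on wild-type arrays, with overlapping groups and a log2 fold change of -0.17 (95% CI -0.47 to 0.13). Gstt4 was the exception, with a higher mean on the KO-labelled arrays and a log2 fold change of 0.085 (95% CI -0.25 to 0.42), but its level of 4.80 lies below the 40th percentile of all probe sets.

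These genes sit side by side on chromosome 10, in the order Gstt3, Gstt1, Gstt4 and Gstt2, with Ddt before and Mif behind them. Both neighbours were looked up after the theta values were seen. Ddt, which encodes a dopachrome tautomerase, had 8.90, 8.69 and 8.92 on the KO-labelled arrays, against 8.96, 8.81 and 8.76 on the wild-type arrays, a log2 fold change of -0.0093 (95% CI -0.26 to 0.24). Mif, a cytokine gene, had 10.45, 10.22 and 10.48 on KO-labelled arrays, against 10.47, 10.53 and 10.42 on wild-type arrays, a log2 fold change of -0.083 (95% CI -0.33 to 0.16). The groups overlapped at both neighbours and at Gstt1 and Gstt4.

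**Figure D2:**
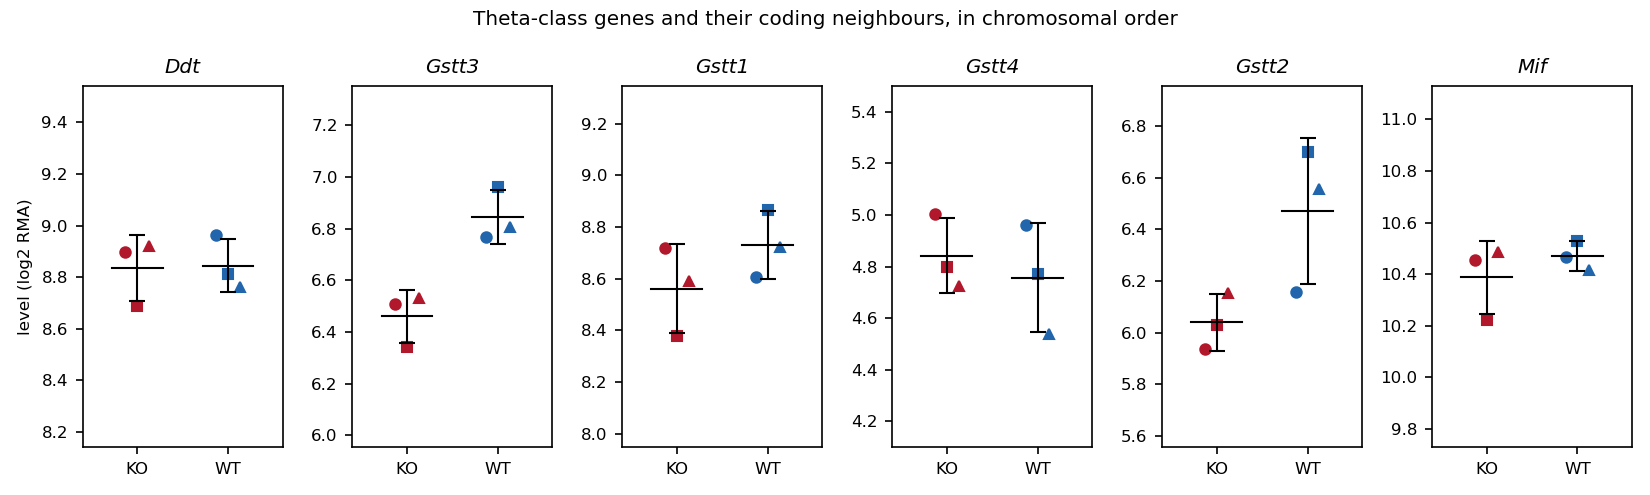
Log2 RMA level (vertical axis, the same span in each panel) of the 4 theta-class genes and the coding genes on either side, in chromosomal order, on the KO-labelled (KO, left) and wild-type (WT, right) arrays; circles, squares and triangles are replicates 1, 2 and 3, and lines with bars are means ± SD (n = 3). Gstt3 separates fully, Gstt2 at its edge, and the other genes overlap.

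The alpha class was represented by Gsta3 and Gsta4, and only Gsta3 reached an unadjusted p under 0.05. Gsta3, whose mouse enzyme detoxifies the epoxide of aflatoxin, was at 4.88, 4.76 and 5.10 on the KO-labelled arrays, against 5.55, 5.66 and 5.12 on the wild-type arrays. All KO-labelled values lay below the wild-type values, but wild-type replicate 3 was close to KO-labelled replicate 3. The log2 fold change of -0.53 (SE 0.17, 95% CI -0.94 to -0.12) was the lowest of the 76 genes and 1.45-fold, and did not pass (limma, unadjusted p = 0.0189, adjusted p = 0.543). Without single arrays it ran from -0.693 to -0.425. Its probe set is faint, with a mean level of 5.18 beside a 40th percentile of 5.07, and probe sets of about that level (5.33) had log2 fold changes with a median of 0.07.

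Gsta4, whose enzyme conjugates hydroxynonenal from oxidised lipids, had a strong signal of 10.04, 9.95 and 10.12 on the KO-labelled arrays, against 10.06, 10.15 and 10.08 on the wild-type arrays. The groups overlapped, with a log2 fold change of -0.058 and a narrow 95% CI of -0.26 to 0.14. Gsta1 and Gsta2 were read only by shared probe sets.

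The promoter of Gsta3 is shown because this gene had the lowest fold change and its window holds the core of an antioxidant response element. The core was searched as TGACNNNGC on both strands in RefSeq promoter windows of GRCm38.p6, from 250 bases before to 50 after each gene's start. Of 68 member genes with a window, 5 held it, 7.35% beside 14.0% of all 27025 genes with a window. A match describes letters only. The 250 bases before the start of Gsta3 are printed 5′ to 3′, with the core in capitals, at chr1:21240335-21240584 on the plus strand.
Gsta3: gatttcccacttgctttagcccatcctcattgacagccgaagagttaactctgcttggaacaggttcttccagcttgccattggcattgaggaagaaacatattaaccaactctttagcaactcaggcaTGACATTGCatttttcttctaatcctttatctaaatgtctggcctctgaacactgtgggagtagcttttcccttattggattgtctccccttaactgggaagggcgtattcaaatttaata
The sites of the other 4 genes follow with 10 bases on either side, each read along its gene's strand, in capitals where the core or its reverse complement stands. They lie at chr3:107931725-107931753 (Gstm7, minus strand), chr6:138140461-138140489 (Mgst1, plus), chr1:65032907-65032935 (Akr1cl, minus) and chr13:4233737-4233765 (Akr1c19, plus).
Gstm7: tctgaagaccTGACAAAGCgaagccaatc
Mgst1: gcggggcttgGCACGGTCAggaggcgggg
Akr1cl: catcttgctgGCAGGGTCAaactaagctc
Akr1c19: agcagaacttGCTTAGTCAgaagagtgat
The core starts 121 bases before the start of Gsta3, 129 before one of the 2 listed starts of Gstm7, 56 before one of the 2 listed starts of Mgst1 and 166 before that of Akr1cl, and at base 8 after that of Akr1c19. The log2 fold changes of these genes were -0.53 for Gsta3, -0.027 for Gstm7, -0.077 for Mgst1, 0.09 for Akr1cl and -0.024 for Akr1c19, so genes with the core lay on both sides of 0. Neither Nqo1 nor any theta-class gene with a window held the core in these 300 bases.

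Mu-class transferases, which conjugate a wide range of electrophiles, gave no gene that passed. Of 6 genes, means on the KO-labelled arrays were lower at 5 and higher at 1. The log2 fold changes had a median of -0.09, and 0 genes reached an unadjusted p under 0.05. Gstm7, with the highest signal of the class, was at 9.78, 9.44 and 9.59 on the KO-labelled arrays, against 9.61, 9.61 and 9.67 on the wild-type arrays, a log2 fold change of -0.027 (95% CI -0.29 to 0.23). Gstm4 was the member whose groups did not overlap, at 7.77, 7.86 and 7.85 on KO-labelled arrays, against 7.89, 8.05 and 7.97 on wild-type arrays, with a log2 fold change of -0.15 (95% CI -0.35 to 0.052; limma, adjusted p = 0.676). Gstm2 had 6.34 on KO-labelled replicate 1 and 5.85 and 5.88 on replicates 2 and 3, against 5.64 on wild-type replicate 1 and 6.55 and 6.54 on replicates 2 and 3. Gstm6 was likewise low on wild-type replicate 1, at 5.89, with 6.66 and 6.53 on the other wild-type arrays. Intervals for both were wide (-0.91 to 0.46 and -0.80 to 0.26). Gstm1 had a higher mean on the KO-labelled arrays (0.09, 95% CI -0.18 to 0.36). The class is a cluster of close paralogs on chromosome 3, so probe sets may share signal between its members.

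Pi, kappa and omega transferases had fold changes near 0, except Gstp3, and overlapping groups at all 6 genes. Gstp1, the main pi-class enzyme, was at 11.69, 11.52 and 11.65 on the KO-labelled arrays, against 11.48, 11.71 and 11.65 on the wild-type arrays, with fully overlapping groups and a log2 fold change of 0.0025 (95% CI -0.24 to 0.24). Gstp2 had a log2 fold change of -0.017 (95% CI -0.29 to 0.25) and Gstp3 one of 0.22 (95% CI -0.21 to 0.66), and pi-class paralogs are close enough in sequence that their probe sets may share signal. Gstk1, the transferase of mitochondria and peroxisomes, was at 10.02, 9.75 and 9.94 on KO-labelled arrays, against 9.86, 10.03 and 9.95 on wild-type arrays (log2 fold change -0.038, 95% CI -0.29 to 0.21). Gsto1, which can reduce dehydroascorbate, was at 8.47, 8.51 and 8.60 on KO-labelled arrays, against 8.56, 8.62 and 8.48 on wild-type arrays (log2 fold change -0.029, 95% CI -0.23 to 0.17). The signs of Gstp1, Gstk1, Gsto1 and Gstm7 turned under other settings or without single arrays. Gsto2 had a log2 fold change of -0.051 (95% CI -0.23 to 0.13).

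Microsomal transferases, a separate membrane family, also overlapped between groups at all 3 genes. Mgst3, the one with the highest signal, was at 8.40, 8.34 and 8.49 on the KO-labelled arrays, against 8.49, 8.27 and 8.18 on the wild-type arrays, a log2 fold change of 0.10 (95% CI -0.17 to 0.36). Mgst1, an enzyme of the endoplasmic reticulum and outer mitochondrial membrane, had a log2 fold change of -0.077 (95% CI -0.37 to 0.21). Mgst2, which can make leukotriene C, had one of 0.0042 (95% CI -0.30 to 0.30). Over all 21 glutathione transferases, means on the KO-labelled arrays were lower at 15 and higher at 6, and the log2 fold changes had a median of -0.04. Lower means made up 71.4% of them, beside 55.3% of all probe sets brighter than the 40th percentile, where 19 of the 21 lie.

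Among the quinone reductases, Nqo1 was flat and noisy while Nqo2 had a lower mean. Nqo1, a classic NRF2 target that reduces quinones, was at 6.38, 6.28 and 6.78 on the KO-labelled arrays, against 6.39, 6.56 and 6.46 on the wild-type arrays. KO-labelled replicate 3 was the highest array of all and replicates 1 and 2 the lowest, so the groups overlapped fully. The log2 fold change was 0.011, with a 95% CI of -0.35 to 0.37, and became -0.14 without KO-labelled replicate 3 and 0.11 without KO-labelled replicate 2. Nqo2, which uses dihydronicotinamide riboside as its reductant, was at 6.87, 6.56 and 6.74 on KO-labelled arrays, against 6.85, 7.18 and 7.06 on wild-type arrays. Wild-type replicate 1 lay just below the highest KO-labelled array, and the other wild-type arrays above all of them. Its log2 fold change of -0.31 (SE 0.13, 95% CI -0.61 to -0.0024) did not pass (limma, unadjusted p = 0.0487, adjusted p = 0.6).

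Aox1, the molybdenum-dependent aldehyde oxidase, had a higher mean on the KO-labelled arrays. Its values were 6.52, 6.66 and 6.41 there, against 6.21, 6.44 and 6.30 on the wild-type arrays, where replicate 2 overlapped the lowest KO-labelled value (log2 fold change 0.21, 95% CI -0.041 to 0.47; limma, adjusted p = 0.639). Ptgr1, a reductase of prostaglandins, leukotrienes and other alkenals, was faint at 4.88, 4.93 and 5.09 on KO-labelled arrays, against 4.97, 5.30 and 5.12 on wild-type arrays, with a log2 fold change of -0.16 (95% CI -0.44 to 0.12). Neither passed the test.

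**Figure D3:**
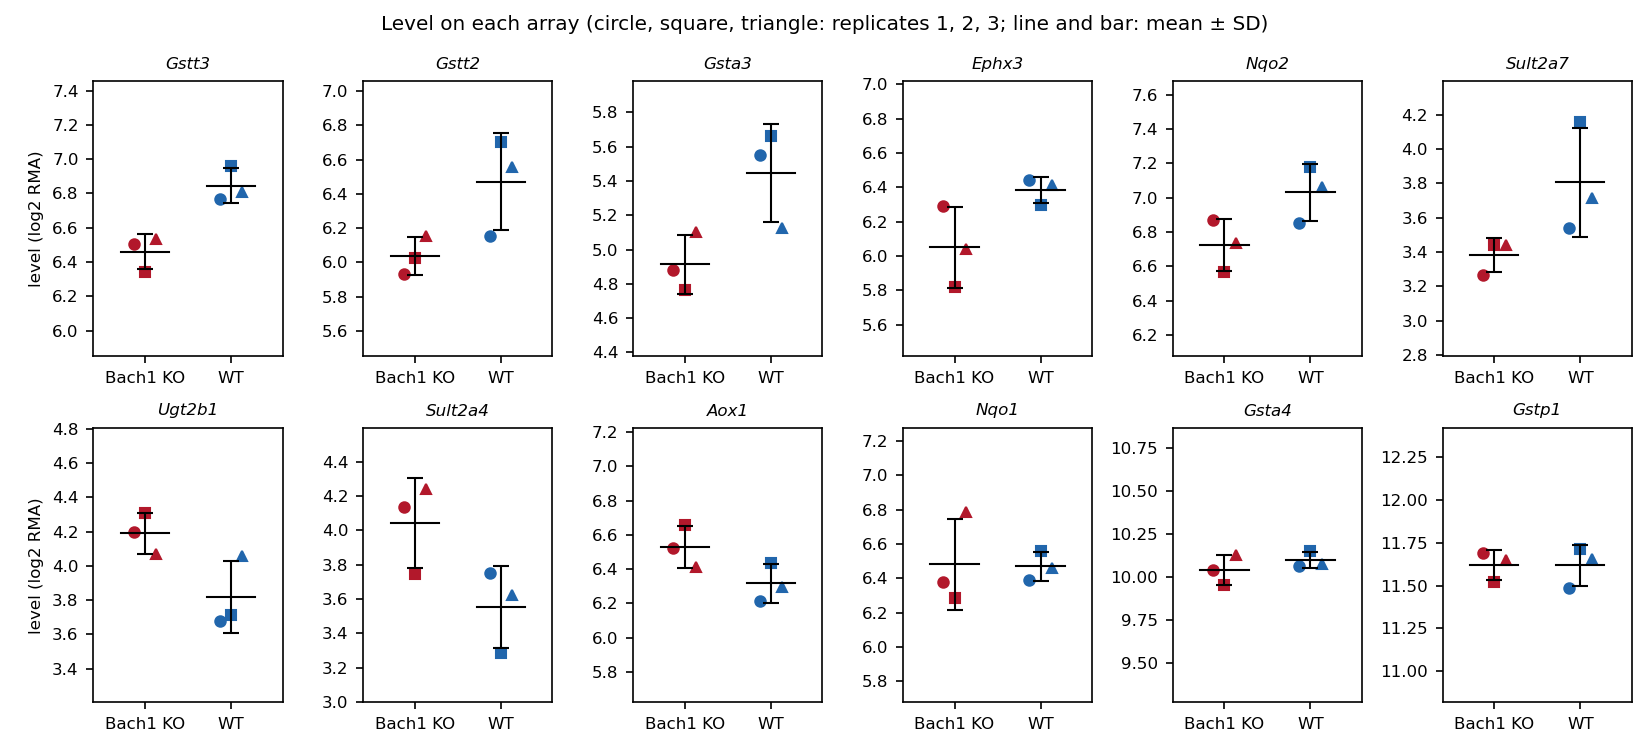
Log2 RMA level (vertical axis, the same span in each panel) of 12 genes on the KO-labelled (left) and wild-type (right) arrays; circles, squares and triangles are replicates 1, 2 and 3, and lines with bars are means ± SD (n = 3). The first 8 panels are the genes at an unadjusted p under 0.05, and Nqo1, Gsta4 and Gstp1 show overlapping groups.

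Epoxide hydrolases, which open reactive epoxides with water, had lower means at 3 of 4 genes. Ephx1, the microsomal enzyme for xenobiotic epoxides, was at 8.68, 8.32 and 8.45 on the KO-labelled arrays, against 8.60, 8.71 and 8.79 on the wild-type arrays. KO-labelled replicate 1 lay within the wild-type range and the other KO-labelled arrays below it (log2 fold change -0.22, 95% CI -0.50 to 0.072; limma, adjusted p = 0.674). Ephx3 was at 6.29, 5.82 and 6.04 on KO-labelled arrays, against 6.44, 6.30 and 6.41 on wild-type arrays, and its groups met at 6.294 on KO-labelled replicate 1 and 6.295 on wild-type replicate 2. Its log2 fold change of -0.33 (95% CI -0.66 to -0.0043; limma, unadjusted p = 0.0478, adjusted p = 0.598) did not pass, and was -0.22 without KO-labelled replicate 2. Ephx2, the soluble enzyme that hydrolyses fatty acid epoxides, had a log2 fold change of -0.14 (95% CI -0.39 to 0.11) and Ephx4 one of 0.083 (95% CI -0.26 to 0.42).

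Aldo-keto and carbonyl reductases, which turn aldehydes and ketones into alcohols, had estimates near 0. All 14 aldo-keto reductases and all 4 carbonyl reductases lay within 0.2 of 0 on the log2 scale. So did 17572 of the 22180 genes with 1 probe set each. Of either family 0 reached an unadjusted p under 0.05, beside 8.27% of all probe sets. Some intervals were wide, such as -0.42 to 0.56 for Akr1c12 and -0.32 to 0.49 for Cbr2, so larger differences are not excluded. Akr1a1, the general aldehyde reductase, was at 11.73, 11.73 and 11.68 on the KO-labelled arrays, against 11.66, 11.74 and 11.74 on the wild-type arrays, a log2 fold change of -0.0049 whose sign depended on the scaling (95% CI -0.19 to 0.18). Groups did not overlap at 2 of the 14 aldo-keto reductases, 14.3% beside a background of 14.3% of all probe sets. These were Akr1b8 with a higher mean (0.19, 95% CI -0.061 to 0.44) and Akr1e1 with a lower one (-0.094, 95% CI -0.29 to 0.10). Akr1b8 is faint, with a mean level of 4.38, below the 40th percentile. Akr7a5, which reduces succinic semialdehyde, had a log2 fold change of -0.044 with SDs of 0.0084 and 0.069 in the KO-labelled and wild-type groups. The 7 Akr1c genes, hydroxysteroid dehydrogenases of liver and gonads, ran from -0.13 to 0.07, and 1 of them had a mean level above the 40th percentile.

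Cbr1, the cytosolic carbonyl reductase of quinones and prostaglandins, was at 9.53, 9.44 and 9.54 on the KO-labelled arrays, against 9.38, 9.49 and 9.43 on the wild-type arrays (log2 fold change 0.068, 95% CI -0.13 to 0.26). A second Cbr1 probe set went the other way, at 8.54, 8.32 and 8.55 on KO-labelled arrays, against 8.61, 8.64 and 8.56 on wild-type arrays, with a log2 fold change of -0.13 and a 95% CI of -0.36 to 0.09. The probe sets therefore gave Cbr1 no agreed direction. Cbr2, Cbr3 and Cbr4 had log2 fold changes of 0.084, 0.095 and -0.064.

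Sulfotransferases split into a few genes with clear signal and many faint ones. Of 21 genes, 4 had a mean level above the 40th percentile: Sult4a1, Sult1a1, Sult2b1 and Sult5a1. Sult4a1, a sulfotransferase of neurons, was at 9.90, 9.92 and 9.83 on the KO-labelled arrays, against 9.86, 9.88 and 9.87 on the wild-type arrays (log2 fold change 0.013, 95% CI -0.17 to 0.19), and its sign turned under median centring and without single arrays. Sult1a1, which sulfates phenols, had a log2 fold change of -0.12 (95% CI -0.42 to 0.18), Sult2b1, which sulfates cholesterol and other sterols, one of -0.24 (95% CI -0.55 to 0.076) and Sult5a1 one of 0.015 (95% CI -0.26 to 0.29).

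The sulfotransferases with the widest differences were Sult2a genes, a cluster of near-identical liver hydroxysteroid sulfotransferases on chromosome 7, and they went both ways. Sult2a4 was at 4.14, 3.74 and 4.24 on the KO-labelled arrays, against 3.75, 3.28 and 3.62 on the wild-type arrays, with an overlap between KO-labelled replicate 2 and wild-type replicate 1. Its log2 fold change was 0.49 (SE 0.18, 95% CI 0.055 to 0.92; limma, unadjusted p = 0.0329, adjusted p = 0.575). Sult2a7 was at 3.27, 3.44 and 3.44 on KO-labelled arrays, against 3.54, 4.16 and 3.72 on wild-type arrays without overlap, a log2 fold change of -0.42 (95% CI -0.84 to -0.012; limma, adjusted p = 0.596), which was -0.247 without wild-type replicate 2 and -0.557 without wild-type replicate 1. All 8 Sult2a probe sets had mean levels of 1.81 to 4.44, below the 40th percentile, and in that faint range 10.5% of all probe sets had an unadjusted p under 0.05. Groups also separated, with higher means, at the faint Sult6b2 (0.25, 95% CI -0.0012 to 0.50) and Sult1c2 (0.19, 95% CI -0.048 to 0.43). With Sult2a7, groups did not overlap at 3 of the 21 sulfotransferases. This is 14.3%, beside 14.3% of all probe sets and 13.3% of those at or below the 40th percentile, so the share was near the background. Sult1d1, a catecholamine sulfotransferase in mouse, had a log2 fold change of -0.33 (95% CI -0.71 to 0.053).

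UDP-glucuronosyltransferases, the glucuronic acid conjugators of liver, were faint at all 8 genes, with mean levels of 1.90 to 4.85. Of these, means on the KO-labelled arrays were higher at 6 and lower at 2, and the log2 fold changes had a median of 0.21. Ugt2b1 was at 4.20, 4.31 and 4.07 on the KO-labelled arrays, against 3.68, 3.71 and 4.06 on the wild-type arrays, and the values of KO-labelled replicate 3 and wild-type replicate 3 nearly met. The log2 fold change was 0.37 (SE 0.13, 95% CI 0.054 to 0.69; limma, unadjusted p = 0.0286, adjusted p = 0.567). Ugt2b38 was at 2.69, 2.50 and 2.48 on KO-labelled arrays, against 1.90, 2.06 and 2.52 on wild-type arrays, with an overlap at wild-type replicate 3 (log2 fold change 0.39, 95% CI -0.025 to 0.81). Ugt2b34, with the highest signal of the family, was at 4.79, 5.20 and 4.83 on KO-labelled arrays, against 4.95, 4.80 and 4.51 on wild-type arrays (log2 fold change 0.19, 95% CI -0.21 to 0.58). Faint probe sets, other than the very faintest, tended to read higher on the KO-labelled arrays over the whole table. In 10 equal groups of all probe sets by mean level, the median log2 fold change was -0.0025 in the faintest (mean level 2.32). It was highest, at 0.0774, in the group with a mean level of 4.81. The median log2 fold change of all probe sets was 0.05 at or below the 40th percentile and -0.02 above it. With the brightness trend removed, the log2 fold changes were 0.305 for Ugt2b1, 0.398 for Ugt2b38 and 0.111 for Ugt2b34, and that of Ugt2b34 was 0.0597 without KO-labelled replicate 2 and 0.0667 without wild-type replicate 3.

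**Figure D4:**
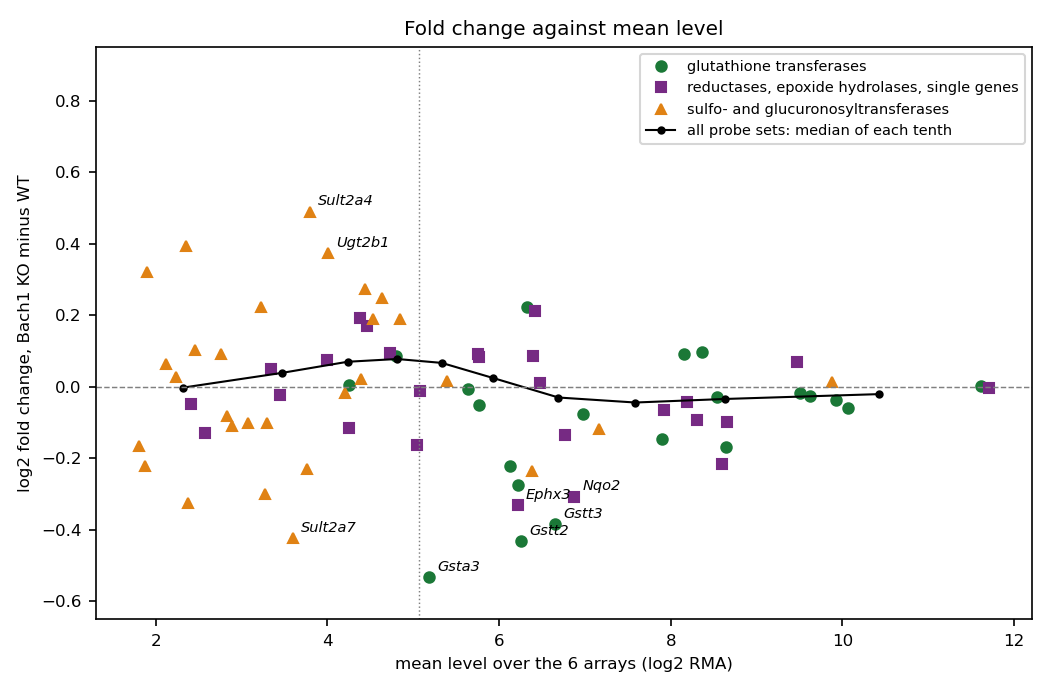
Log2 fold change, KO-labelled minus wild type (vertical axis), against mean log2 RMA level over the 6 arrays (horizontal axis) for the 76 genes; the black line joins the medians of 10 equal groups of all probe sets by mean level, and the dotted vertical line is the 40th percentile. The median runs from -0.04 to 0.08, and the named points among brighter genes all lie below the line.

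Brightness split the genes by direction. Of the 39 genes above the 40th percentile of mean level, means on the KO-labelled arrays were lower at 27 and higher at 12, and of the 37 others means were lower at 16 and higher at 21. All probe sets leaned the same way, with lower means at 55.3% above the 40th percentile and 41.8% at or below it. Among the 39, 5 reached an unadjusted p under 0.05 and 5 of 5 were lower (12.8%, beside 6.81% of all probe sets of that range, of which 3.11% lower and 3.7% higher). Groups did not overlap at 6 of the 39, 15.4% beside 14.9% of all probe sets of that range, of which 6.48% higher and 8.45% lower. Limma called 0 of the 39, beside 0.0121% of that range. The 5 genes are Gstt3, Gsta3, Gstt2, Ephx3 and Nqo2.

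Markers of vessels and meninges had lower means on the KO-labelled arrays. Meningeal fibroblast markers were lower in 12 of 14, with array means relative to wild type of -0.06, -0.67 and -0.30 on KO-labelled replicates 1, 2 and 3, against -0.63, 0.30 and 0.33 on the wild-type arrays. Endothelial and mural markers were lower in 12 of 14, at -0.04, -0.29 and -0.05 on KO-labelled arrays, against -0.06, 0.06 and -0.01 on wild-type arrays. In these, wild-type replicate 1 lay below KO-labelled replicates 1 and 3. Means computed in this way for the theta class were -0.16, -0.31 and -0.20 on KO-labelled arrays, against -0.08, 0.12 and -0.04 on wild-type arrays. For the mu class they were 0.0031, -0.18 and -0.12 on KO-labelled arrays, against -0.25, 0.19 and 0.06 on wild-type arrays. For the epoxide hydrolases they were -0.08, -0.18 and -0.19 on KO-labelled arrays, against -0.07, 0.05 and 0.01 on wild-type arrays. Wild-type replicate 1 was the lowest wild-type array for all of these groups. Other families went either way. The UDP-glucuronosyltransferases were at 0.05, 0.21 and 0.18 on KO-labelled arrays, against 0.06, -0.19 and 0.13 on wild-type arrays. The pi class was at 0.04, 0.14 and 0.03 (KO-labelled) against 0.03, -0.11 and 0.08 (wild type). Carbonyl reductases were at 0.07, -0.05 and 0.11 (KO-labelled) against -0.04, 0.05 and -0.01 (wild type). The alpha class was at -0.31, -0.41 and -0.16 (KO-labelled) against 0.04, 0.13 and -0.17 (wild type). The part of the marker shifts in these values was not tested. Without KO-labelled replicate 2 and wild-type replicate 1, the 2 arrays lowest in meningeal markers, the log2 fold changes were -0.36 for Gstt3, -0.58 for Gstt2, -0.40 for Gsta3, -0.32 for Nqo2 and -0.19 for Ephx3. The meningeal difference did not go away with those arrays, since the others were at -0.06 and -0.30 (KO-labelled) against 0.30 and 0.33 (wild type), so these values do not bear on it.

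Other marker lists differed in how far they shifted. Astrocyte markers were lower in 7 of 12, with array means of -0.04 to -0.0036 on KO-labelled arrays, against -0.03 to 0.04 on wild-type ones. Oligodendrocyte markers were lower in 6 of 11, at -0.18 to 0.09 (KO-labelled) against -0.05 to 0.09 (wild type), and microglia markers in 3 of 11, at -0.08 to 0.07 (KO-labelled) against -0.02 to 0.01 (wild type). Ependyma and choroid plexus markers were lower in 4 of 11, at -0.02 to 0.15 (KO-labelled) against -0.13 to 0.23 (wild type). Blood markers with a probe set of their own were 5 of 12 and lower in 3. Dopamine neuron markers were higher in 12 of 15, with a median log2 fold change of 0.15 and array means of 0.14, -0.07 and 0.28 on KO-labelled arrays, against 0.04, 0.05 and -0.09 on wild-type arrays. Markers of other neurons were higher in 9 of 12, at -0.0076 to 0.06 (KO-labelled) against -0.06 to 0.08 (wild type). Hypothalamus and pituitary markers were lower in 13 of 14, at -1.23 to -0.40 (KO-labelled) against -0.47 to 0.55 (wild type). Their median log2 fold change was -0.54, beside -0.28 for meningeal fibroblast markers. Limma called 0 markers of any of these lists. At an unadjusted p under 0.05 were 1 microglia (9.09%) and 1 endothelial or mural marker (7.14%). So were 2 ependyma or choroid plexus (18.2%), 2 dopamine neuron (13.3%) and 2 hypothalamus or pituitary markers (14.3%). The background is 8.27% of all probe sets and 6.81% of those above the 40th percentile.

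**Figure D5:**
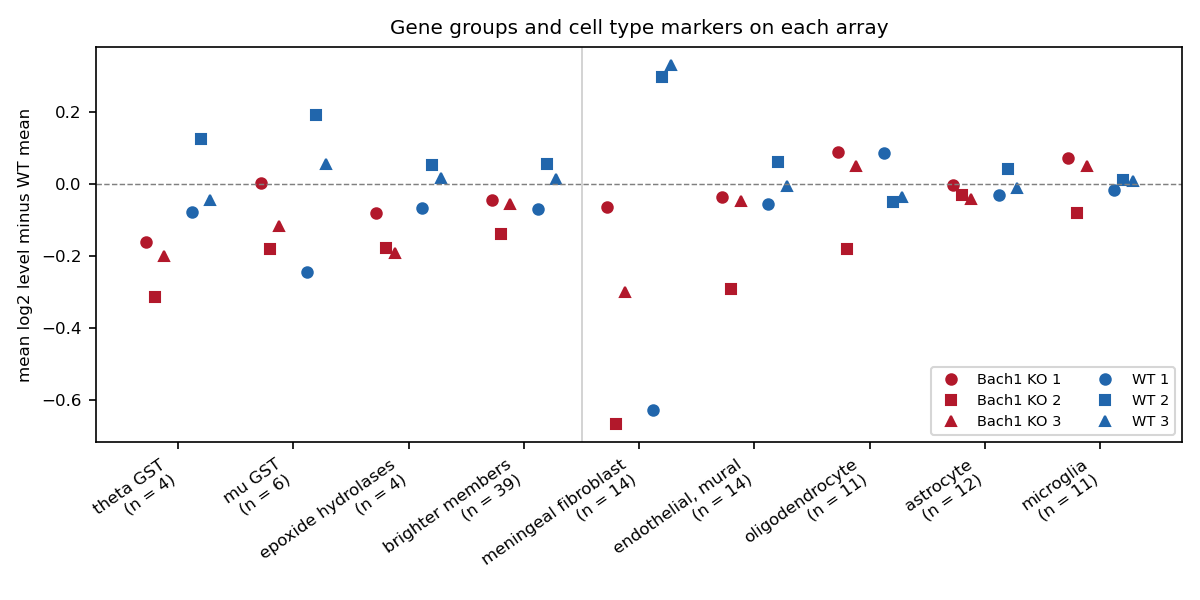
Mean log2 level of each gene group relative to its wild-type mean (vertical axis) on the KO-labelled (left of each tick) and wild-type (right) arrays, for 4 groups of detoxification genes and 5 lists of cell type markers; circles, squares and triangles are replicates 1, 2 and 3. Meningeal markers are lowest on KO-labelled replicate 2 and wild-type replicate 1, at -0.67 and -0.63. Hypothalamus and pituitary markers and the other gene families are not drawn.

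The 11 probe sets shared by several genes gave 0 calls as well. Among them, means on the KO-labelled arrays were higher at 5 and lower at 6. The probe set of Gstz1, the zeta-class enzyme of tyrosine breakdown, and its neighbour Pomt2 was at 9.002, 8.841 and 8.954 on the KO-labelled arrays, against 9.073, 9.163 and 9.119 on the wild-type arrays, without overlap (log2 fold change -0.19; limma, adjusted p = 0.615). The Ugt1a probe set that reads 8 genes was at 4.97, 4.97 and 4.71 on KO-labelled arrays, against 4.70, 4.75 and 4.82 on wild-type arrays (log2 fold change 0.13). Another Ugt1a probe set, which reads 5 genes and lies above the 40th percentile, was at 5.67, 5.28 and 5.45 on KO-labelled arrays, against 5.49, 5.48 and 5.61 on wild-type arrays, and leaned the other way (log2 fold change -0.059). The probe set of Gstm5 and its neighbour had a log2 fold change of -0.04, and that of Gstp1 with Gstp2 one of -0.04. The widest difference of the 11 was at the faint probe set of Ugt2a1 with Ugt2a2 (mean level 3.56). Its log2 fold change was 0.42 (95% CI -0.048 to 0.90), with overlapping groups. The shared probe sets given with values were chosen with those values known.

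Genes that work beside these enzymes were described by lists. Of 10 genes that supply glutathione, sulfate or glucuronic acid, means on the KO-labelled arrays were higher at 6 and lower at 4. Limma called 0 of them over the whole table, and 2 were at an unadjusted p under 0.05 (20.0%, beside 8.27% of all probe sets). The share was 6.51% of the 22180 genes with 1 probe set each. It was 6.81% of probe sets above the 40th percentile, where all 10 lie. Gclm, which encodes the regulatory subunit of glutamate-cysteine ligase, was at 10.27, 10.04 and 10.11 on the KO-labelled arrays, against 9.88, 9.83 and 9.84 on the wild-type arrays, without overlap (log2 fold change 0.30; limma, unadjusted p = 0.0154, adjusted p = 0.538). Papss2, which makes the sulfate donor of sulfotransferases, was at 8.49, 8.44 and 8.43 on KO-labelled arrays, against 8.61, 8.95 and 8.79 on wild-type arrays, also without overlap but lower (log2 fold change -0.33, 95% CI -0.58 to -0.073; limma, adjusted p = 0.545).

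Of 12 other conjugating enzymes, means were lower at 8 and higher at 4. At an unadjusted p under 0.05 were 2 (16.7%, beside 8.27% of all probe sets and 6.51% of genes with 1 probe set each). Nat1, an arylamine acetyltransferase, was at 4.53, 4.43 and 4.43 on the KO-labelled arrays, against 5.07, 4.90 and 5.13 on the wild-type arrays. The groups were far apart relative to their SDs of 0.055 and 0.12, with a log2 fold change of -0.57 (SE 0.094, 95% CI -0.80 to -0.34) that did not pass over all probe sets (limma, unadjusted p = 0.0008, adjusted p = 0.512). Its probe set is faint, with a mean level of 4.75, below the 40th percentile of all probe sets. Nat8, an acetyltransferase of cysteine conjugates, had a log2 fold change of -0.33 (95% CI -0.58 to -0.069; limma, adjusted p = 0.552), and its groups did not overlap.

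Of 28 phase I oxidases and aldehyde dehydrogenases, means were lower at 19 and higher at 9, and 0 passed. The 4 genes at an unadjusted p under 0.05 made up 14.3%, beside the same 8.27% and 6.51% (limma for each). With lower means were the carboxylesterase Ces2g (log2 fold change -0.49, adjusted p = 0.512), Aldh3b1 (-0.39, adjusted p = 0.543) and the flavin monooxygenase Fmo5 (-0.28, adjusted p = 0.577). Ces2g is faint, with a mean level of 4.46, below the 40th percentile. Aldh1a1, the retinal and dopamine aldehyde dehydrogenase of dopamine neurons, had a higher mean (0.26, limma, adjusted p = 0.564). Of 12 exporters of drugs and conjugates, 8 were lower and 4 higher, with Slco1a4 at -0.23 and Abcc3 at 0.13. Of 12 sensors of xenobiotics and electrophiles, 6 were lower and 6 higher, with the aryl hydrocarbon receptor repressor Ahrr at 0.36 and Arnt at -0.10. Ahrr is faint, with a mean level of 4.56, below the 40th percentile. Of 9 hydrolases of conjugates and related steroid enzymes, 6 were lower and 3 higher, with Ggt5 at -0.23 and Arsa at -0.14. In these last 3 lists 0 genes passed over all probe sets and 0 reached an unadjusted p under 0.05 in limma.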

How the data were processed

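Ventral midbrain RNA was measured on 3 Affymetrix arrays labelled Bach1 knockout and 3 labelled wild type. The deposited log2 values were made by the authors with RMA, per the submitters' processing notes; its version, settings and probe build are not given in the sources used here. RMA compresses differences of faint probe sets. Probe sets were named from the platform annotation, with symbols updated through the RefSeq gene table of GRCm38.p6: of 41345, 23521 had 1 gene, 1814 several and 16010 none.

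Each probe set was fitted with limma 3.58.1 (lmFit and eBayes, R 4.3.3), knockout-labelled minus wild type, and p-values were adjusted by Benjamini-Hochberg over all 41345, with a call at 0.05. The fit was tested on simulated data. The text gives array values for the gene of highest signal in each family, Nqo1, Nqo2, Aox1, Ptgr1, every gene at an unadjusted p under 0.05, and the 3 highest and 3 lowest fold changes. For related lists it names up to 4 genes at an unadjusted p under 0.05, or else the 2 with the smallest p. Values of other genes are given where a count or class needs them. The genes and lists were chosen with earlier results of these data known.

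Alternatives were another scaling (median centring, renewed quantile normalization), dim probe sets left out, another rule per gene, no moderation or trended and robust variances, a replicate block and each array left out. After seeing the data, 2 were added: removal of the brightness trend, and both arrays lowest in meningeal markers left out. Promoters are RefSeq sequences of GRCm38.p6.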

Additional observations from a re-analysis of the deposited data

How the results depend on the processing

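Limma called 0 of the 76 genes under every alternative run. Over all probe sets it called 3 in the reported fit, 1 with 1 probe set per gene, 1 with the mean of a gene's probe sets, 2 without variance moderation (Hmox1 not among them), 0 with each single array left out and 0 without KO-labelled replicate 2 and wild-type replicate 1. With the replicate number as a block the count was 0, and 7 of the 76 genes were at an unadjusted p under 0.05. Deviations of same-numbered arrays from their group means had correlations of 0.0864, -0.0326 and 0.0395 over all probe sets. These cannot settle whether the numbers pair the samples, since a pairing that touched only some genes could leave them near 0. The labels do not say what the numbers mean.

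The count of genes at an unadjusted p under 0.05, 8 as reported, was 5 with renewed quantile normalization, 5 after removal of the brightness trend, 5 without dim probe sets (39 genes left, so fewer tested), 3 without moderation, 10 with 1 probe set per gene, 10 with the mean of a gene's probe sets, 7 with the replicate block, 6 with trended and robust variances, and 2 to 8 with single arrays left out. The median log2 fold change, -0.0212 as reported, was -0.0682 under median centring. Apart from the fewer genes tested, the cause was not tested.

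Of the 24 genes that the naming rule gives on every array, 16 had the same sign under all alternatives run for them. Genes with dim probe sets had 15 alternatives and the others 16. All genes named for an unadjusted p under 0.05 or an extreme fold change are among those with a steady sign. They were picked from these data, and that choice favours a steady sign. The alternatives also draw on the same 6 arrays, so the count cannot show whether the directions would repeat. Signs turned under renewed quantile normalization and after removal of the brightness trend for Gsto1 (0.00887 and 0.00905) and Akr1a1 (0.0133 and 0.00495). They turned under median centring for Gstp1 (-0.0446), Sult4a1 (-0.0343) and Nqo1 (-0.0362), and with the mean of probe sets for Cbr1 (-0.0333). Without KO-labelled replicate 2 and wild-type replicate 1 they turned for Gstp1 (-0.0158), Sult4a1 (-0.0109) and Gstm7 (0.0422), and Akr1a1 was at -0.0403. With single arrays left out, log2 fold changes ran from -0.0671 to 0.00482 for Gsto1, -0.0323 to 0.0114 for Akr1a1, -0.0646 to 0.0513 for Gstp1, -0.00737 to 0.0392 for Sult4a1, -0.141 to 0.11 for Nqo1, -0.116 to 0.0534 for Gstm7 and -0.0967 to 0.0383 for Gstk1. With 3 arrays a group the intervals of most genes include 0, and faint probe sets carry little signal over background.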
